A study of Danio rerio with 2 samples.

Results

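The genes described here are 9 well-known targets and regulators of p53, followed in the livers of zebrafish larvae injected with a morpholino against man1a2. They are mdm2, mdm4, cdkn1a, ccng1, bbc3, baxa, gadd45aa, phlda3 and rps27l, chosen by symbol as a check for a response to injection. The rule uses no measured value, but the genes were proposed with earlier results of these data known. All 9 symbols were found, on 10 of the 31953 Ensembl gene IDs in the counts, because 2 IDs carried the symbol GADD45A. The table of names that was used writes many zebrafish genes with the upper-case human symbol, so baxa appears as BAX, and which of the 2 GADD45A IDs is gadd45aa was not settled. Both are described, each with its ID.

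RNA came from livers of larvae at 5 days post fertilization. Uninjected larvae gave the control library, and larvae injected at the one-cell stage with a man1a2 morpholino gave the morphant library. Each library pooled RNA from 3 batches, and 100 livers are stated without saying whether that is per batch or in all. Several transgenic lines are listed for the study, and which of them supplied the sequenced livers is not given. Neither the morpholino nor the dose used for the sequenced pool is stated. With uninjected controls, injection and man1a2 knockdown cannot be told apart. With 1 library per group there were no replicates, so no difference below has been set against the spread between pools of larvae.

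A morpholino is a short synthetic oligomer that pairs with a chosen RNA and keeps it from being translated or spliced. The 2 designed against man1a2 are shown because they are the injected agents whose possible side effects these genes are commonly used to watch. In the first, the capitals mark CAT, the complement of a start codon, and in the second they mark ACTCAC, the complement of GTGAGT, the letters of a common splice donor.
man1a2-ATG: ccggcgtggtCATattttgatgatc
man1a2-splicing: aagaatgtaaACTCACctctctgat
Both are 25 bases long, with the capitals at bases 11 to 13 of the first and 11 to 16 of the second. Doses of 1.5 or 4.5 ng are listed for the first and 5 or 7.5 ng for the second.

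The p53 protein is a transcription factor that is held low in unstressed cells, mainly because Mdm2, itself a p53 target, ubiquitinates it and sends it for degradation. When DNA damage, ribosomal stress or other insults release p53, it switches on genes that halt the cell cycle, repair DNA or start apoptosis, together with its own inhibitors. In zebrafish, some morpholinos activate p53 whatever their intended target, and a rise of cdkn1a and mdm2 is a usual readout.

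The control library held 19658335 counts over 18924 genes and the morphant library 19783886 counts over 19104 genes. A log2 ratio here is the morphant over the control count, after division by DESeq2 size factors and with a pseudocount of 0.5 added, and its 95% interval (Clopper-Pearson, without pseudocount) covers counting error only. Each of the 15732 genes with at least 10 reads in all was given a 2-sided exact binomial test of its reads, adjusted by Benjamini-Hochberg over those genes. Passing this read test took an adjusted p under 0.05 together with a fold of at least 1.2. The test compares these 2 libraries and not the conditions. PCR copies are not independent molecules, so the intervals can be too narrow and the p-values too small even for the libraries. CPM is a count scaled to the library total, and a count of 3, the floor used here, is 0.153 CPM in the control and 0.152 CPM in the morphant library.

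All 10 IDs had enough reads to be tested, and 3 of them were past the read test, all higher in morphants: MDM4, CCNG1 and the GADD45A of ID ENSDARG00000104571. Among all genes tested, 26.0% were past it, 13.0% higher and 13.0% lower in morphants. MDM4 and CCNG1 were only just over the minimum fold, at 1.24 and 1.23. No member differed by 2-fold or more, where 10.7% of all genes tested did, sparse genes included. The most familiar readouts, mdm2 and cdkn1a, were not past the test. Over the 10 IDs the median log2 ratio was 0.26, with 8 above 0 and 2 below, against a median of 0.01 and 51.2% above 0 over all genes tested. Of the 10 ratios, 6 lay between the quartiles of all genes (-0.31 to 0.28) and 10 in the central 95% (-1.53 to 1.46).

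**Figure D1:**
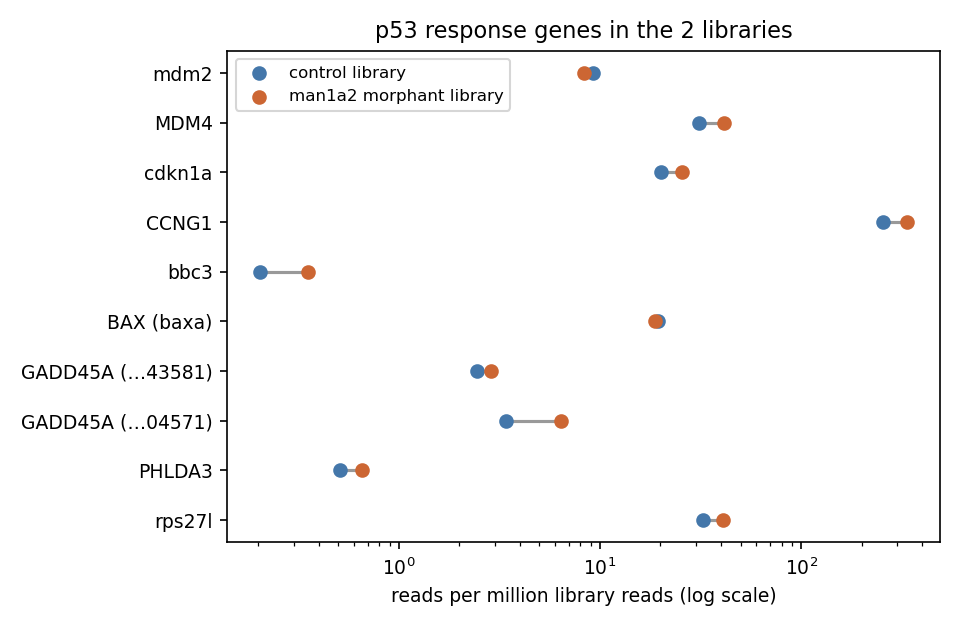
CPM (reads scaled to each library's total, log axis) for the 10 gene IDs, control in blue and man1a2 morphant in orange, 1 library each, with a grey line joining the pair. Of the pairs, 8 have the morphant point to the right, mdm2 and BAX have it slightly to the left, and levels of different genes are not comparable because gene length was not used.

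Of the negative regulators of p53, MDM4 was past the read test and mdm2 was not. mdm2, the ubiquitin ligase that degrades p53, had 181 reads in the control and 165 in the morphant library, or 9.21 and 8.34 CPM. Its log2 ratio of -0.24 had an interval from -0.55 to 0.07, and 70.5% of all genes tested had a higher ratio (adjusted p = 0.258, exact binomial test). The interval's upper end lies well under a 1.2-fold rise, as far as counting error goes. MDM4, the relative of Mdm2 that binds p53 and masks its activating domain, had 610 and 818 reads, or 31.0 and 41.3 CPM. Its log2 ratio was 0.32 (0.16 to 0.47, adjusted p = 0.000298 in the exact binomial test), a 1.24-fold difference.

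Among the genes of cell cycle arrest, cdkn1a encodes p21, the inhibitor of cyclin-dependent kinases through which p53 stops cells in G1. It had 394 control and 509 morphant reads, or 20.04 and 25.7 CPM, with a log2 ratio of 0.26 (0.07 to 0.46). Its adjusted p was 0.0248 in the exact binomial test, but its fold of 1.199 lay just under the minimum, so it was not past the read test. Scaling decided this call: with total counts in place of size factors its log2 ratio was 0.36 and it was past the test (adjusted p = 0.000982, exact binomial), while with upper-quartile factors its adjusted p was 0.0506. CCNG1, cyclin G1, a p53 target that recruits a phosphatase to Mdm2, was by far the deepest member, with 5036 and 6676 reads, or 256 and 337 CPM. Its log2 ratio of 0.30 had the narrowest interval of the 10 (0.25 to 0.35), and it was 1.23-fold higher in morphants (adjusted p = 2.33e-27, exact binomial test).

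GADD45A proteins are stress-induced and act in growth arrest and in signalling to stress kinases. The ID ENSDARG00000104571 went from 67 to 127 reads, or 3.41 to 6.42 CPM. Its log2 ratio of 0.81 (0.38 to 1.26, adjusted p = 0.00100, exact binomial test) was the highest among the members, and only 7.02% of all genes tested had a higher one. The other ID, ENSDARG00000043581, went from 48 to 57 reads, with a log2 ratio of 0.14 (-0.44 to 0.73), and was not past the test. These intervals overlap, and the difference between the IDs was not tested.

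The apoptosis members gave no difference past the read test. BAX, which permeabilizes the outer mitochondrial membrane, had 384 control and 371 morphant reads, or 19.5 and 18.8 CPM, and a log2 ratio of -0.16 (-0.37 to 0.05, adjusted p = 0.262, exact binomial test). bbc3 encodes Puma, the BH3-only protein through which p53 starts apoptosis, and it was barely detected, with 4 and 7 reads. Its log2 ratio of 0.64 (-1.28 to 2.92) is compatible with large differences either way, so none was detectable at this depth. PHLDA3, an inhibitor of Akt at the membrane, was nearly as low, with 10 and 13 reads and a log2 ratio of 0.26 (-1.03 to 1.62).

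rps27l encodes a variant of a small-subunit ribosomal protein and is p53-inducible in human cells. It had 643 control and 811 morphant reads, or 32.7 and 41.0 CPM, and a log2 ratio of 0.23 (0.08 to 0.38). Its adjusted p was 0.0122 in the exact binomial test, but at 1.17-fold it fell short of the minimum fold. It is a close relative of rps27.1, with 8149 and 10213 reads, and of rps27.2, with 8173 and 11278. How the authors' counting handled reads matching several genes is not given in the sources used here, so its value is uncertain. The ratio of rps27l also lay near the median of 0.20 over the 33 small-subunit ribosomal protein genes, 32 of which were above 0 and 6 of which were past the test. That is 18.2% past it, against 26.0% of all genes tested. Of those past the test, the farthest above 0 by their interval were rps27.2 (0.36), RPS13 (0.34), RPS29 (0.32) and RPS24 (0.28). By ratio alone, RPS28 and rps20, both also at 0.28, lay just above RPS24. The call of RPS24 was lost with upper-quartile factors. With total counts 28 of the 33 were past and higher, against 20.2% of all genes tested.

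**Figure D2:**
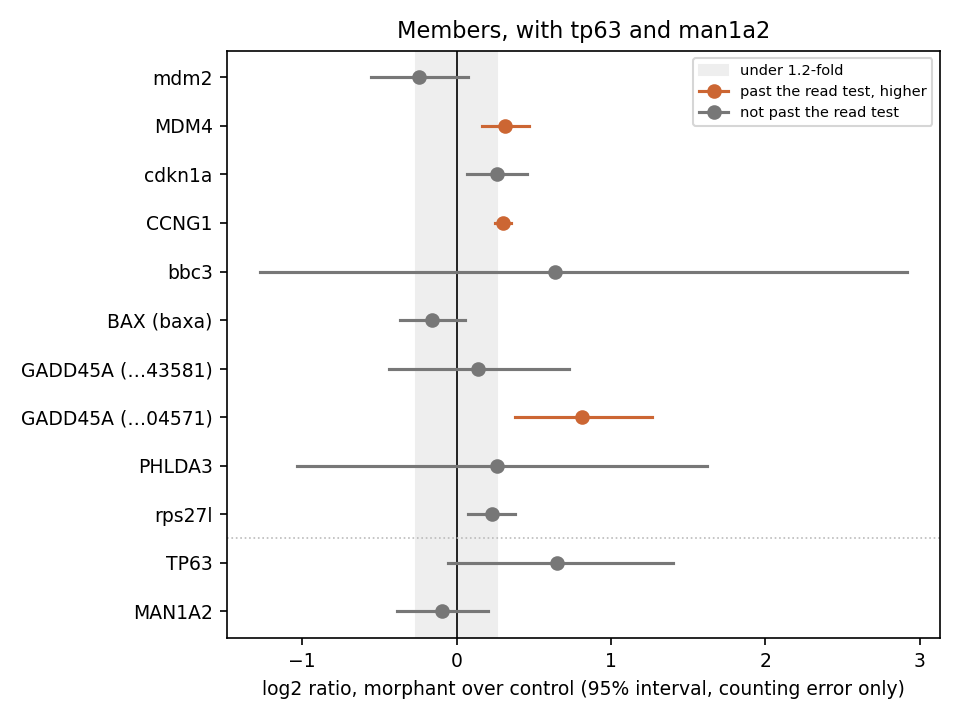
Log2 ratios of morphant over control for the 10 member IDs and, under the dotted line, TP63 and MAN1A2, with 95% intervals that cover counting error only. Orange is past the read test and higher in morphants, grey not past, and the grey band is under 1.2-fold; MDM4 and CCNG1 sit at its edge and GADD45A (ENSDARG00000104571) well to its right.

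Further genes were read beside the members. TP63, a p53 family member of surface epithelia, was sparse, with 27 and 46 reads (0.65, -0.06 to 1.40, not past the test), and TP73 had 2 and 1. The targeted gene did not separate the libraries, with 193 control and 195 morphant reads for MAN1A2 and a log2 ratio of -0.09 (-0.39 to 0.20, adjusted p = 0.698, exact binomial test). A translation-blocking morpholino need not lower its target's RNA, and which of the 2 morpholinos was injected here is not stated. These gene counts therefore cannot settle whether the knockdown worked.

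Because the scaling of the libraries moves every ratio together, member reads were also divided by mdm2 reads, a description chosen after the values were seen. Per mdm2 read there were 3.37 MDM4 reads in the control and 4.96 in the morphant library, a ratio of ratios of 1.47 (95% exact conditional interval 1.15 to 1.88, counting error only). For cdkn1a that ratio was 1.42 (1.097 to 1.83), for CCNG1 1.45 (1.17 to 1.81) and for rps27l 1.38 (1.09 to 1.76). It was 2.08 (1.42 to 3.05) for the GADD45A of ID ENSDARG00000104571 and 1.06 (0.815 to 1.38) for BAX. These values do not depend on scaling. mdm2 had the lowest log2 ratio of the 10, so every ratio of ratios against it is above 1 by construction, and they are no evidence that the members rose.

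Total counts shifted all ratios up by 0.10 and turned the calls among all genes from 49.99% to 68.44% higher in morphants. With them 5 members were past the read test, all higher, where 20.2% of all genes were past it and higher. The added genes were cdkn1a and rps27l (adjusted p = 0.000119 in the exact binomial test), and mdm2 (-0.14) and BAX (-0.06) stayed below 0. With TMM or upper-quartile factors the same 3 members were past as with size factors. Depth matters too. Of the 8 members with 100 reads or more, 3 were called and 3 lay between the quartiles of the 10626 genes at that depth (-0.22 to 0.24). Of those genes, 31.0% were past the read test. Their central 95% ran from -0.91 to 0.84, so 2-fold differences were rarer there than the 10.7% over all genes tested. All 8 members lay in that range, with the GADD45A of ID ENSDARG00000104571, at 0.81, near its upper end.

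**Figure D3:**
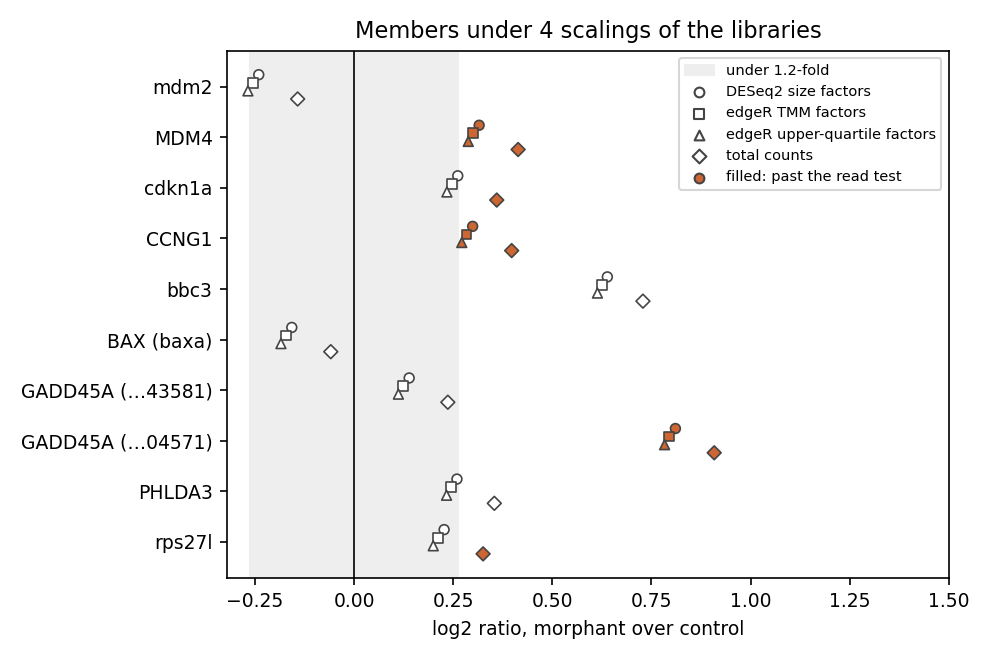
Log2 ratios of the 10 member IDs under 4 scalings of the libraries: circles, DESeq2 size factors; squares, TMM factors; triangles, upper-quartile factors; diamonds, total counts. Filled symbols are past the read test and the grey band is under 1.2-fold; MDM4, CCNG1 and GADD45A (ENSDARG00000104571) are filled under all 4, cdkn1a and rps27l only with total counts, and no member changes sign.

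Pools of larvae differ by more than counting error, by an amount 1 library per group cannot show. With edgeR's exact test and an assumed coefficient of variation of 0.1 between pools, 0 members were past the test, against 6.37% of all genes. The adjusted p was then 0.510 for MDM4, 0.503 for CCNG1 and 0.0858 for the GADD45A of ID ENSDARG00000104571 (edgeR exact test). At 0.2 the number was again 0, against 1.40% of all genes.

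Close relatives of the members were examined next, since duplicated zebrafish genes can divide a response. The 13 IDs listed include both GADD45A member IDs. Of the 13, 11 had enough reads, and 6 were past the read test, all higher in morphants. The member ENSDARG00000104571, already described, is 1 of these 6. Over all genes tested, 26.0% were past the test and 13.0% past it and higher. The growth arrest family was represented by GADD45G (ENSDARG00000019417), with 882 and 1258 reads (0.40), and by GADD45B (ENSDARG00000027744), with 93 and 146 reads (0.54). The second GADD45B ID, with 34 and 38 reads (0.05), was not past the test, and the second GADD45G ID had 0 and 1 read. CCNG2, cyclin G2, had 275 and 392 reads (0.40, past), while the related cyclin CCNI had 3426 and 3767 (0.03, not past). PHLDA2 had 5 and 19 reads (1.72, interval 0.35 to 3.60, past), and PHLDA1 had none in either library. baxb had 82 and 65 reads (-0.44, not past). Of the ribosomal relatives, rps27.2 was past the test and rps27.1, at 0.22, was under the minimum fold.

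Other genes of the pathway were counted from lists written from general knowledge. Among 21 tested upstream regulators of p53, 2 were past the read test and higher and 3 lower in morphants, with a median log2 ratio of 0.19. That is 23.8% past the test, near the 26.0% of all genes tested, so the list did not stand out. The higher ones were PPM1D (ENSDARG00000009273), the Wip1 phosphatase that p53 induces and that dampens it, with 60 and 105 reads (0.70), and RPL11, a ribosomal protein that binds Mdm2 (0.28), whose call was lost with upper-quartile factors. The second PPM1D ID, with 21 and 42 reads (0.88), was not past the test, though it was with total counts. The lower ones included HIPK2, a kinase that phosphorylates p53, with 276 and 168 reads (-0.82), and EP300 (ENSDARG00000100666), a histone acetyltransferase and coactivator (-0.29), whose call was lost with total counts. The second EP300 ID, with 227 and 199 reads (-0.30), was not past the test. The balance of the list turned with scaling. With total counts 6 regulators were past and higher and 2 past and lower, where 68.44% of the calls among all genes were higher.

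Targets and partners in arrest and repair were mixed. Of 26 tested, both GADD45A IDs included, 8 were past and higher and 3 past and lower, with a median of 0.12. That is 42.3% past the test, against 26.0% of all genes tested. The higher GADD45A, GADD45B and GADD45G IDs and CCNG2 were already counted among the relatives of the members. The counts of these lists are therefore not separate. BTG2, an antiproliferative p53 target, had 61 control and 115 morphant reads (0.80), and PLK2 (ENSDARG00000090752), a kinase of the same response, had 140 and 234 (0.63). The second PLK2 ID, with 164 and 209 reads (0.24), was not past the test. PCNA, the replication clamp, had 1583 and 2216 (0.38). The 3 lower ones were DDB2, which recognizes ultraviolet damage, with 232 and 148 reads (-0.75), the repair nuclease gene ercc5, with 118 and 71 (-0.84), and FDXR, a mitochondrial reductase, with 984 and 712 (-0.57). All 3 are counted among p53 targets in mammals.

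Genes of the apoptosis machinery were more often lower than higher. Of 26 tested, 8 were past and lower and 4 past and higher, with a median of -0.31. In all 46.2% were past the test, against 26.0% of all genes tested. The lower ones included bida, a BH3-only gene, with 192 and 124 reads (-0.74), and APAF1, the apoptosome scaffold, with 268 and 190 (-0.60). BCL2L1, which protects against apoptosis, was lower as well, with 344 and 254 reads (-0.54). The higher ones were diabloa, a mitochondrial antagonist of caspase inhibitors, with 6669 and 11638 reads (0.70), the survival gene mcl1b, with 670 and 1153 (0.68), the cytochrome c gene cycsb, with 2859 and 4146 (0.43), and the BH3-only gene badb, with 97 and 154 (0.56). Genes that promote and genes that restrain apoptosis thus stood on both sides.

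The cyclins, their kinases and related cell cycle genes were more often higher than lower. Of 18 tested, 8 were past and higher and 2 past and lower, with a median of 0.18. In all 55.6% were past the test, against 26.0% of all genes tested. PCNA, described above with arrest and repair, is counted among the higher genes of both lists. The genes farthest above 0 by their interval were CCNB1, CCNA2 and CDK1. CCNB1, cyclin B1, had 242 and 501 reads (0.94), CCNA2, cyclin A2, had 155 and 305 (0.87), and their kinase CDK1 had 460 and 809 (0.71). CCNB2, cyclin B2, named after its values were seen, had 50 and 43 reads (-0.32) and was not past the test. CCND2 (ENSDARG00000051748), a G1 cyclin, was lower with 298 and 227 reads (-0.50), as was RBL1, a pocket protein (-0.43), whose call was lost with total counts. The second CCND2 ID, with 37 and 28 reads (-0.50), was not past the test. Genes listed as other CDK inhibitors were taken by their CDKN symbols and not by function. Of 5 tested, 3 were past and higher, where 13.0% of all genes tested were. They were CDKN3, with 26 and 55 reads (0.96), and both CDKN1B IDs. ENSDARG00000029018 had 207 and 322 reads (0.53). ENSDARG00000054271 had 248 and 328 (0.30) and was not past with TMM or upper-quartile factors.

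Morpholinos can also set off an innate antiviral response, so interferon-stimulated genes were counted beside the members. Of 24 IDs, 13 had enough reads, 0 were past and higher and 8 past and lower, with a median of -0.68. That is 61.5% of those tested past the test, against 26.0% of all genes tested. Leukocyte marker genes, given below, were lower as well (5 of 9 tested, 0 higher), and their part in these ratios was not tested. usp18, a feedback inhibitor of this response, had 32 and 9 reads (-1.88). Reads of ifi44a1 went from 14 to 1 and those of parp9 from 14 to 2, with intervals of -9.32 to -1.20 and -6.10 to -0.79 on the log2 scale. With a coefficient of variation of 0.1 assumed in edgeR's exact test, 2 interferon, 3 cyclin, 2 apoptosis and 1 regulator gene were past it, and 0 of the arrest and repair genes, other CDK inhibitors, small-subunit ribosomal protein genes and relatives of the members. Over all genes tested the share was 6.37%. With 0.2 the number was 0 in each of these lists, against 1.40% of all genes.

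**Figure D4:**
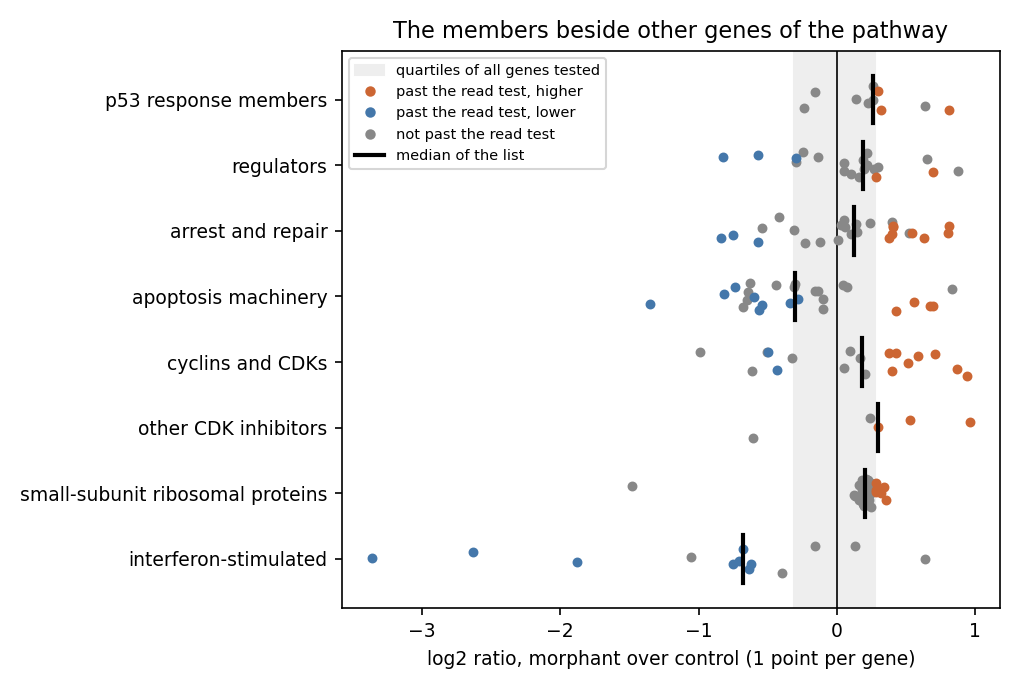
Log2 ratios of morphant over control, 1 point per tested gene, for the members and 7 pathway lists, with orange past the read test and higher, blue past and lower and grey not past. The black bar is each list's median and the grey band spans the quartiles of all genes tested (-0.31 to 0.28); the medians run from -0.68 for interferon-stimulated genes to 0.30 for other CDK inhibitors, with the members at 0.26.

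Marker genes of other tissues differed between the libraries. In bulk RNA, fewer cells of a type and less RNA per cell cannot be told apart. The 10 hepatocyte markers, led by tfa and apoa2, made up 10.5% of control and 10.1% of morphant counts (2 of 10 tested lower, 0 higher). The lower ones included tfa itself (-0.29), whose call was lost with total counts. All 14 exocrine pancreas IDs were past the read test and higher, from 706 reads summed to 9687, led in morphants by prss59.2 and ctrb.1. So were 7 of 10 tested epidermis IDs. The 11 listed went from 882 to 2371 reads, led by krt4 while krt91 had 418 and 426. Reads of skeletal muscle summed to 57 and 110, and only 2 of its 9 IDs had enough reads to be tested, 1 of them past and higher. Leukocyte IDs went from 415 to 186 reads (5 of 9 tested lower) and erythroid IDs from 2083 to 1504 (5 of 6 tested lower). Intestinal IDs went from 2751 to 2809 (2 of 3 tested lower) and biliary IDs from 28988 to 31549 (1 of 7 tested lower). Over all genes tested, 13.0% were past and higher and 13.0% past and lower. The 10 members summed to 7377 and 9554 reads, 5036 and 6676 of them CCNG1. The part of these other tissues in the ratios of the members and of the pathway lists was not tested.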

How the data were processed

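The authors deposited raw counts of reads per Ensembl gene, 1 table for each library, without normalization. Per the labels, poly-A RNA was made into strand-specific libraries, and the submitters' processing notes name FastQC, DESeq2 and build GRCz10. The aligner, the counting program and the annotation are not given in the sources used here. Symbols came from a separate name table that covered 26121 of 31953 IDs.

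Size factors came from DESeq2 1.42.0 in R 4.3.3, and binomial tests and intervals from SciPy 1.17.1 (Python 3.11.15). TMM and upper-quartile factors and exact tests with an assumed or a blind dispersion came from edgeR 4.0.16, the blind one being the dispersion DESeq2 fits with both libraries as 1 group. With 1 library in each group, the quasi-likelihood test of edgeR and the test of DESeq2 could not be fitted. The fold of 1.2 and the adjusted p threshold of 0.05 follow the study's methods. The read test was checked on simulated counts that held counting error only, with the scaling known. That check cannot speak to the spread between pools, PCR copies or the choice of scaling.

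Named genes are the members, tp63, tp73, man1a2, all relatives of members and, per pathway list, up to 4 genes in each direction past the read test with the interval bound farthest from 0. CCNB2 and the second IDs of PPM1D, EP300, PLK2 and CCND2 are outside this rule and were named after their values were seen. Members and lists were chosen with earlier results of these data known. Alternatives were other scalings, minimum reads of 1 or 100, a pseudocount of 5, no minimum fold or 2-fold, and the edgeR tests. No columns were left unused. A few genes that this rule names are not reported here.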

Additional observations from a re-analysis of the deposited data

How the results depend on the processing

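Of the 10 member IDs, 3 were past the read test with size factors, TMM or upper-quartile factors and with minimum reads of 1 or 100. The number was 5 with total counts and 5 with no minimum fold. It was 0 with a minimum fold of 2, and 0 in edgeR's exact test at coefficients of variation of 0.1, 0.2 or 0.4 or with the blind dispersion, whose median coefficient of variation was 0.295. Over all genes, 4089 were past the read test, 4648 with total counts, 5124 with no minimum fold and 1057 with a minimum fold of 2. In edgeR's exact test 1002, 220 and 43 were past at 0.1, 0.2 and 0.4, and 117 with the blind dispersion. The members' median log2 ratio lay between 0.23 and 0.36 under the other scalings, read minimums and pseudocount. No member changed sign. The log2 ratio of MAN1A2 did, from -0.09 to 0.0057 with total counts, without passing the test. Among the 48 other named genes the call was lost by 1 with TMM factors, 3 with upper-quartile factors and 2 with total counts, which added 1. The edgeR tests for single genes were chosen after seeing the data. No paired analysis was possible because there was only 1 control and 1 morphant library, and no replicate could be left out. The low counts of bbc3 and PHLDA3 limit what could be seen.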
